A study of Mus musculus with 22 samples.

Results

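Interferon response genes were followed across all 22 arrays of a series on blood stem cells sorted from mouse fetal liver. The list held 39 genes known to be induced by interferons, and 35 of them could be measured. Each was read from the probe set that names only that gene, or, for Ifi35, the brighter of its 2 such probe sets. Oas1a, Gbp2 and Dtx3l had only a probe set shared with a neighbour (Oas1g, Gbp2b and Parp9), and Ifi44 had no probe set listed under its symbol, so these 4 were not analysed here. The 35 genes stand among 22180 genes tested.

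The cells came from livers of wild-type C57Bl/6J embryos at stage E14.5. They all grew on OP9-DL1, stromal cells that present the Notch ligand Dll1, so no group was free of stromal contact or of culture. The groups were GSI for 10 h (4 arrays), DMSO for 10 h (4 arrays), GSI for 4 h (7 arrays) and DMSO for 4 h (7 arrays), where GSI is a gamma-secretase inhibitor used at 1 µM, which blocks the release of the active part of Notch receptors, and DMSO is its vehicle. SLAM LSK cells, a gate enriched for stem cells, were sorted after culture, and each biological replicate gave 1 GSI and 1 DMSO sample. Such a replicate is called a culture or a pair below. Codes in the sample descriptions split the cultures into runs, whose meaning is not stated: at 10 h, cultures 1 and 2 form run 1 and cultures 3 and 4 form run 2; at 4 h, culture 1 forms run 1, cultures 2 and 3 form run 2, and cultures 4 to 7 form run 3. At 4 h a further letter in the description is shared by cultures 4 and 5 and differs for all others.

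Levels are the deposited log2 expression values, so a difference of 1 is a doubling. Array medians over all probe sets lay between 4.45 and 4.52 for 10 h and between 5.03 and 5.12 for 4 h, so levels of both times are not on 1 scale as deposited. Stem cell markers (8 measured) averaged 7.27 to 8.16 per array at 10 h and 7.66 to 8.89 at 4 h. Markers of other cells were also present: at 10 h the mean of 6 endothelial markers ranged from 6.16 to 8.37 and that of 8 hepatocyte markers from 4.81 to 7.00, and at 4 h the endothelial mean ranged from 7.98 to 10.91 and the hepatocyte mean from 6.46 to 9.66. Hes1, a direct Notch target, checks the inhibitor. It was lower with GSI than with DMSO in 4 of 4 pairs at 10 h (difference −1.36 ± 0.12, SE, limma adjusted p = 4.72e-05) and in 7 of 7 pairs at 4 h (−0.97 ± 0.09, adjusted p = 0.000199). In sorted bulk samples, fewer cells of a type and less RNA per cell cannot be told apart.

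Interferons are secreted when a cell senses foreign or misplaced nucleic acid. Type I interferon binds the Ifnar1 and Ifnar2 receptor chains, the kinases Jak1 and Tyk2 are activated, and a complex that holds Stat2 and Irf9 enters the nucleus and switches on many genes through a short promoter motif, the interferon-stimulated response element. Many of the products detect or restrict viruses, and some (Irf7, Stat2, Irf9 and the cytosolic sensors) are themselves part of the pathway, so that a response amplifies itself. In haematopoietic stem cells the pathway is known to drive quiescent cells into cycle, and Sca-1, a marker of the LSK gate, is itself interferon-inducible. Its gene Ly6a had no probe set of its own and was not analysed here.

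The response element was looked for in RefSeq promoters of assembly GRCm38.p6, from 250 bases before to 50 bases after each gene's start, as GAAA, any 2 bases, GAAA on either strand. Of the 25 measured interferon response genes with a promoter entry, 14 (56%) held it, against 657 of 16918 genes tested (3.88%). Among 37 further interferon-induced genes with an entry, 16 (43.2%) held it. The stretches below show the match in 6 genes that carry the differences described further on and in Irf2, which has a match and hardly varied between cultures. Capitals mark the response element (overlapping matches merged), and each is flanked by up to 15 bases, 5′ to 3′ on the gene's own strand. A match is a description of the letters and not a shown binding site.
Isg15: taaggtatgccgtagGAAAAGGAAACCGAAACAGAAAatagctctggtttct
Ifit1: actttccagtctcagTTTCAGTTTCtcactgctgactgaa
Rsad2: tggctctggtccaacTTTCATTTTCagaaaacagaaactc
Oas3: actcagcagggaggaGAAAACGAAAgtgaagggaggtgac
Bst2: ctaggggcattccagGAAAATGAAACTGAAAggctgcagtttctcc
Cxcl10: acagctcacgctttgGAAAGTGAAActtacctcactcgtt
Irf2: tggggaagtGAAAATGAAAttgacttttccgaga

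These stretches lie at chr4:156200860-156200911 (minus strand) for Isg15, chr19:34640789-34640828 (plus strand) for Ifit1, chr12:26456548-26456587 (minus) for Rsad2, chr5:120777710-120777749 (minus) for Oas3, chr8:71537572-71537617 (minus) for Bst2, chr5:92349078-92349117 (minus) for Cxcl10 and chr8:46739495-46739528 (plus) for Irf2. All lie in the promoter window. The match starts 78 bases before the start of Isg15, 85 before that of Ifit1, 120 before that of Rsad2, 75 before that of Oas3, 130 before that of Bst2, 213 before that of Cxcl10 and 241 before that of Irf2. Isg15 and Bst2 hold several overlapping matches, and the elements of Ifit1 and Rsad2 read on the opposite strand. Ifit1 holds a further match, 104 bases before its start, whose end lies in the lower-case flank printed here.

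The cultures differed far more than the treatments did. Isg15, a ubiquitin-like protein that is joined to other proteins during an interferon response, shows the pattern. At 4 h it stood at 9.86 on the GSI array and 9.83 on the DMSO array of culture 1. In cultures 4 and 5 it stood at 8.95 and 9.12 with GSI and at 8.60 and 9.06 with DMSO. Cultures 2, 3, 6 and 7 gave 6.73, 6.85, 6.88 and 6.82 with GSI and 7.13, 7.09, 7.33 and 7.05 with DMSO. Both arrays of a culture thus fell in the same of 3 separate bands. Over all 7 cultures the GSI and DMSO values overlapped, whereas within the lowest band every GSI value lay below every DMSO value, with pair differences of −0.40, −0.24, −0.45 and −0.23. At 10 h, Isg15 was at 7.32, 8.08, 10.08 and 9.68 in GSI cultures 1 to 4 and at 8.88, 8.46, 9.94 and 9.70 in DMSO cultures 1 to 4, so every array of run 2 exceeded every array of run 1.

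Most of the other genes split the cultures in the same way. At 4 h, culture 1 was the highest of 7 on both its GSI and its DMSO array for 31 of 35 interferon response genes, against 7.35% of all genes. The 4 others were Sting1, Irf1, Irf2 and Ifit3. Cultures 4 and 5 both exceeded cultures 2, 3, 6 and 7 on GSI and on DMSO arrays for 30 of 35, against 0.960% of all genes. The 5 that did not were those 4 and Bst2. At 10 h, both cultures of run 2 exceeded both of run 1 under either treatment for 28 of 35, against 4.77% of all genes. Dhx58, Irf2, Irf9, Ifit3, Trim25, Ifi35 and Rtp4 overlapped. Of 46 further interferon-induced genes, 41, 26 and 34 met these 3 descriptions. The orders were read from these arrays and are given as descriptions.

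**Figure D1:**
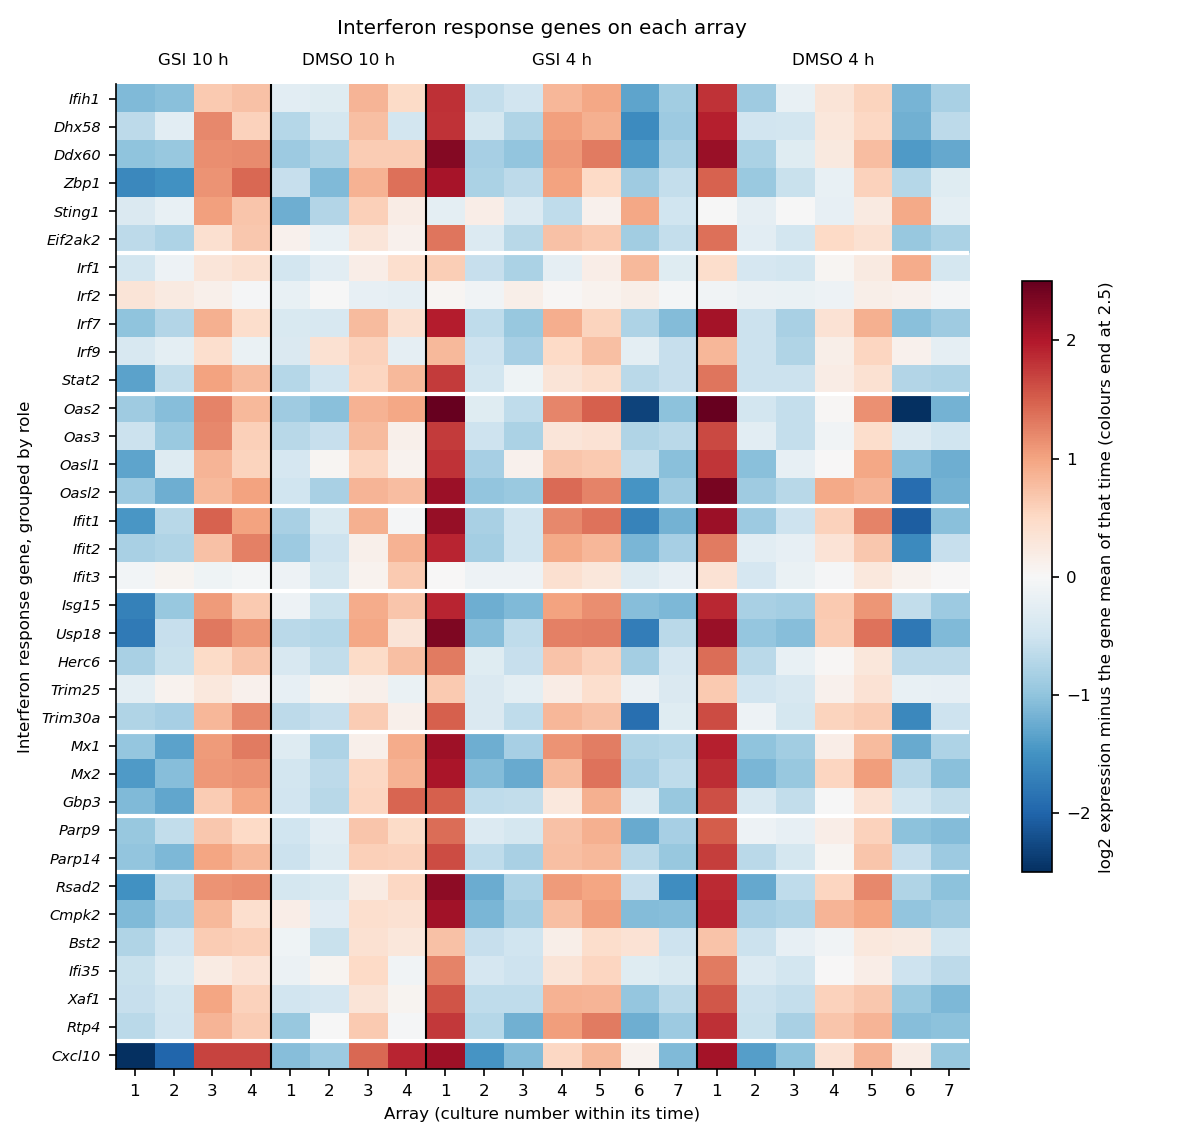
Each column is 1 array and each row 1 of 35 interferon response genes, grouped by role. Colour gives log2 expression minus the gene's mean over the arrays of the same time, and colours end at 2.5 on either side. Culture 1 at 4 h and cultures 3 and 4 at 10 h are red in most rows under GSI and under DMSO alike, whereas Irf2 and Ifit3 stay pale.

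The median over the 35 genes was 9.39 with GSI and 9.33 with DMSO in 4 h culture 1. It was 8.41 with GSI and 8.00 with DMSO in culture 4, and 8.58 with GSI and 8.30 with DMSO in culture 5. In cultures 2, 3, 6 and 7 it lay between 6.70 and 6.96 with GSI and between 6.82 and 7.05 with DMSO. At 10 h it was 6.85 and 7.16 with GSI, against 7.05 and 7.30 with DMSO, in the cultures of run 1. In the cultures of run 2 it was 8.63 and 8.44 with GSI, against 8.39 and 8.23 with DMSO. Within each time the high and low cultures did not overlap in this median under either treatment, and a GSI array always fell in the same band as its DMSO partner.

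The spread between culture means (GSI and DMSO array averaged) had a median SD of 0.785 at 10 h and 1.03 at 4 h over the 35 genes, against 0.155 over all genes at either time. At each time 28 of the 35 genes (80%) lay above the 95th percentile of all genes. The SD of the pair differences was smaller, with a median of 0.434 at 10 h and 0.284 at 4 h, against 0.244 and 0.206 over all genes. An F test of the cultures of 1 time, added after the pattern was seen, sets the differences between cultures against the spread within pairs. It called 31 of 35 genes at 10 h (limma adjusted p under 0.05), against 11.9% of all genes, and 33 of 35 at 4 h, against 25.5%. Such a rate was not particular to these genes at 4 h. There the test also called 8 of 8 stem cell, 8 of 8 hepatocyte, 6 of 6 endothelial and 10 of 11 macrophage markers, but 1 of 6 plasmacytoid dendritic cell markers. At 10 h it called 4 of 8, 4 of 8, 4 of 6, 6 of 11 and 1 of 6 in these lists. Ifit3 and Irf2 were called at neither time, and Ifi35 and Trim25 missed at 10 h (adjusted p = 0.0507 and 0.0645). Within run 3 at 4 h, 33 of 35 were called, against 15.1% of all genes; without culture 6 it was 25 of 35. Within run 2 at 4 h, none of 35 was called by limma, against 0.577% of all genes, and 1 of 35, Oasl1, had an unadjusted p under 0.05.

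By role, the sensors of nucleic acid varied widely. Ddx60, a helicase linked to antiviral sensing, spanned 12.6-fold between the culture means at 4 h, and Ifih1 (MDA5), which detects long double-stranded RNA, spanned 8.33-fold. Zbp1, a sensor of left-handed nucleic acid that can trigger necroptosis, spanned 6.55-fold at 10 h and 6.16-fold at 4 h. Sting1, the adaptor of cytosolic DNA sensing, followed another order: its highest 4 h culture was culture 6, at 9.75 with GSI and 9.72 with DMSO, and the 6 other cultures lay between 8.14 and 8.94 with GSI and between 8.54 and 9.0 with DMSO. Irf1 was likewise highest in culture 6 (8.13 with GSI and 8.25 with DMSO). Culture 6 was also the highest in the mean of the 6 endothelial markers, at 10.86 with GSI and 10.91 with DMSO; the part of those cells in either gene was not tested.

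Among the effectors, Oas2, an enzyme that makes the 2′-5′ oligoadenylates which activate RNase L, had the widest range of culture means of the 35 genes at 4 h, 34.4-fold. Its 4 h levels ran from 4.81 to 9.79 with a median of 6.81 in GSI, and from 4.47 to 9.70 with a median of 6.66 in DMSO, and culture 6 was lowest under both. Ifit1, an inhibitor of translation of foreign RNA, spanned 16.1-fold, Usp18, the protease that removes Isg15 and damps receptor signalling, 15.9-fold, and Oasl2 15.5-fold. Culture 6 was the lowest for these genes too, and it also stood apart in stem cell markers. Hlf was at 5.92 with GSI and 5.31 with DMSO there, against at least 7.88 and 7.96 in the other cultures. Meis1 was at 7.03 and 7.59, against at least 9.27 and 9.26. Procr, in contrast, was highest in culture 6 (9.96 and 9.70). The part of these cell differences in the ranges was not tested. Rsad2 (viperin), which makes a chain-terminating nucleotide, and its neighbour Cmpk2, a nucleotide kinase, spanned 10.2-fold and 8.21-fold. At 10 h the widest range was that of Cxcl10, a chemokine that draws activated T cells, at 13.2-fold.

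At the other end stood Irf2, a factor that mostly represses the response element. Its culture means differed by 0.24 at 4 h and 0.23 at 10 h (SD 0.09 and 0.10), below the all-gene median SD of 0.155. Ifit3 had SDs of 0.21 at 4 h and 0.22 at 10 h, although its promoter window holds 2 matches to the response element. Its neighbours Ifit1 and Ifit2 varied with SDs of 1.46 and 1.03 at 4 h. Ifit3 was read from 1 probe set, and how well that probe set responds was not tested. The Trim25 SD, for the ubiquitin ligase that activates RIG-I, was 0.40 at 4 h and 0.18 at 10 h.

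**Figure D2:**
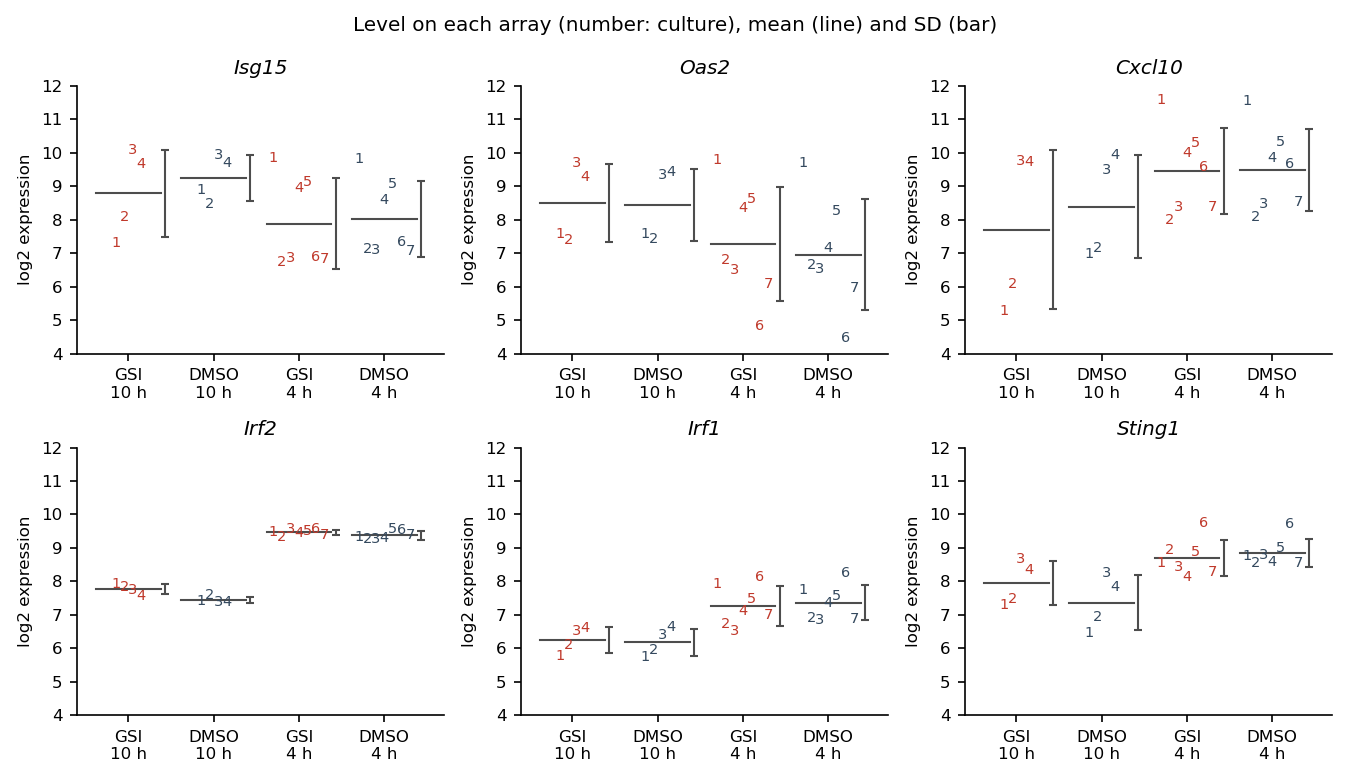
Log2 expression on every array for 6 genes; the printed number is the culture, the line the group mean and the bar its SD. Isg15, Oas2 and Cxcl10 are highest in culture 1 at 4 h and higher in cultures 3 and 4 than in cultures 1 and 2 at 10 h under GSI and DMSO alike, while cultures close to each other can swap places; Irf2 spreads little at either time, and Irf1 and Sting1 peak in culture 6 at 4 h.

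The means of the macrophage and of the neutrophil and monocyte list did not show this order. In 4 h culture 1 the macrophage list (11 genes) averaged 7.40 with GSI and 6.69 with DMSO, whereas culture 3, low in interferon response genes, had 7.48 and 7.44. Cultures 4 and 5 had 6.31 and 6.29 with GSI and 6.13 and 6.51 with DMSO. Single macrophage markers differed: Cd5l (7.94 with GSI and 6.81 with DMSO) and Marco (8.05 and 7.57) were highest in culture 1. Mrc1 was lowest there (7.03 and 6.55), and Csf1r and C1qb were highest in culture 3. The neutrophil and monocyte list (10 genes) differed between the arrays of culture 1, at 8.38 with GSI and 6.92 with DMSO, whereas the median of the interferon response genes there was 9.39 with GSI and 9.33 with DMSO. Of 6 plasmacytoid dendritic cell markers the F test called only Irf8 at 4 h, which was lowest in culture 1 (7.41 with GSI and 7.35 with DMSO, the others from 8.95 upward). The mean of the other 5 was highest in culture 1, at 4.87 with GSI and 4.91 with DMSO, against 4.67 to 4.80 with GSI and 4.68 to 4.84 with DMSO in the other cultures. Endothelial markers were lowest in culture 1, at 8.23 with GSI and 7.98 with DMSO, and the next lowest culture on either treatment had 9.16 with GSI and 9.09 with DMSO. The culture highest in interferon response genes at 4 h thus also stood apart in these markers, whose part was not tested. Hepatocyte markers were high in cultures 4 and 5 (8.98 and 9.46 with GSI, 9.36 and 9.66 with DMSO) but also in culture 2 (9.34 with GSI and 9.21 with DMSO). At 10 h, run 2 against run 1 gave a positive difference for 34 of 35 interferon response genes. Positive differences were found for 0 of 11 macrophage (median −0.34, none called) and 0 of 10 neutrophil and monocyte markers (−0.90, none called). The same held for 1 of 6 endothelial markers (−1.56, Lyve1 called lower) and 2 of 14 stromal markers (−0.45, Ccn2 called lower). But 6 of 8 hepatocyte (median 0.44, none called) and 4 of 6 plasmacytoid dendritic cell markers (median 0.03, none called) were positive. The part of these cells was not tested.

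**Figure D3:**
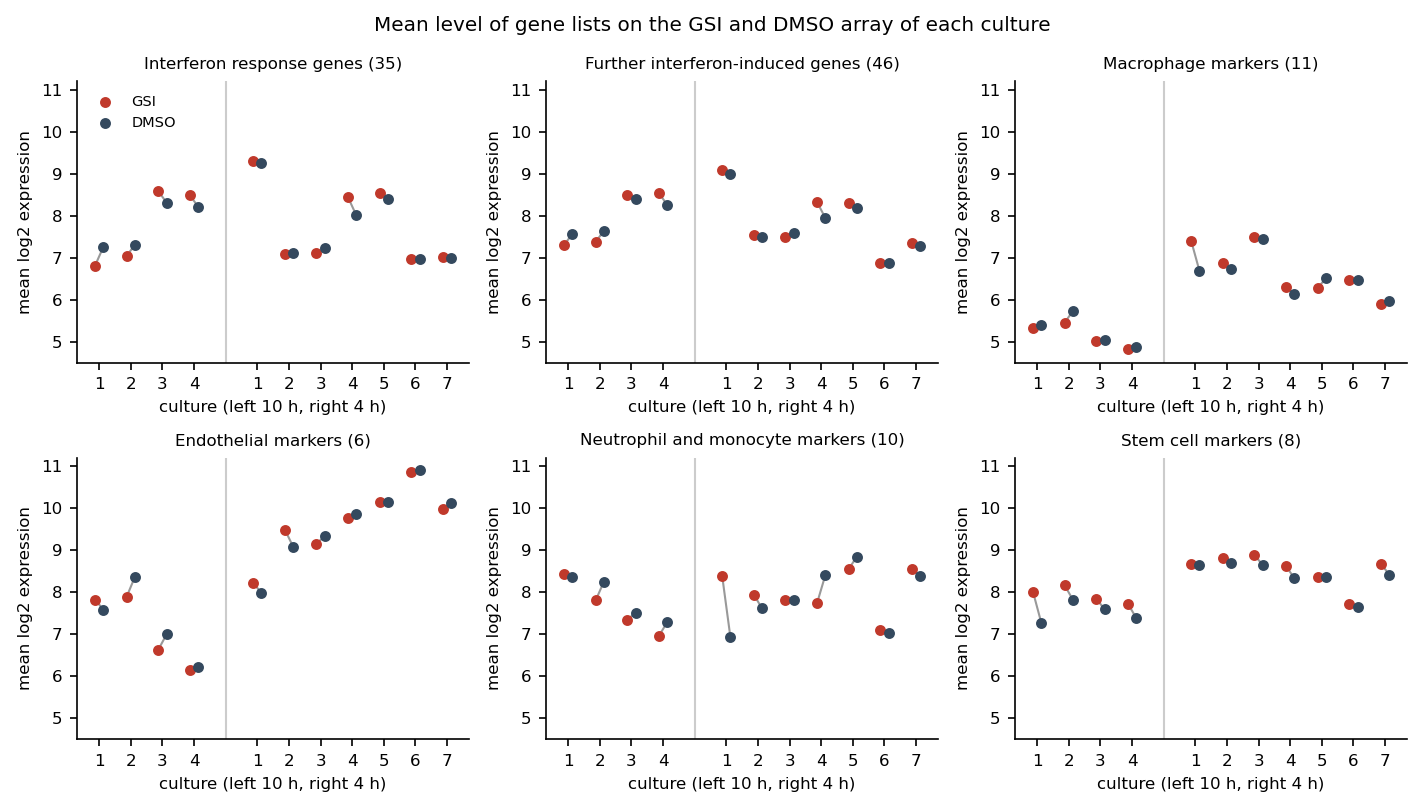
Mean log2 expression of 6 gene lists on the GSI (red) and DMSO (dark) array of each culture, 10 h at the left of each panel and 4 h at the right, with a line joining a pair. The interferon response genes and the further interferon-induced genes are both highest in culture 1 at 4 h and in cultures 3 and 4 at 10 h, and the endothelial markers are lowest in those same cultures.

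Upstream of the response, the type I receptor genes did not vary in this way. Ifnar1 ranged from 9.02 to 9.63 and Ifnar2 from 9.58 to 9.91 over the 7 GSI arrays at 4 h. Over the 10 h DMSO arrays Ifnar1 ranged more widely, from 6.89 to 7.98, and Ifnar2 from 9.06 to 9.17. The Ifnar1 difference, GSI minus DMSO, was 1.20 in 10 h culture 1 and −0.09 to 0.53 in the other 10 h pairs. Neither receptor gene was called by the F test at either time. Of 23 measured genes of the upstream list (receptors, kinases, sensors and adaptors), the F test called 9 at 10 h and 12 at 4 h. Of all genes it called 11.9% and 25.5%. Among those called at both times was Ddx58 (RIG-I), which followed the order of the interferon response genes. At 4 h it stood at 10.03 with GSI and 10.23 with DMSO in culture 1. In cultures 4 and 5 it was at 9.47 and 9.61 with GSI and at 8.90 and 9.34 with DMSO. The other 4 h cultures had at most 8.33 with GSI and 8.18 with DMSO. Ifnb1, which encodes interferon beta, was called at both times. At 10 h it stood at 3.18, 3.17, 4.44 and 6.54 in GSI cultures 1 to 4 and at 3.08, 3.19, 3.61 and 8.48 in DMSO cultures 1 to 4. At 4 h it stood at 7.09, 4.14, 3.7, 5.89, 4.95, 6.73 and 3.19 in GSI cultures 1 to 7, against 6.20, 3.36, 4.00, 4.19, 5.32, 3.23 and 3.56 in DMSO cultures 1 to 7. On DMSO arrays its 3 highest 4 h values were those of cultures 1, 4 and 5, although culture 4 (4.19) lay close to culture 3 (4.00). Its 4 h pair differences, GSI minus DMSO, ran from −0.37 to 3.50, so this order is uncertain. With GSI, culture 6 was second highest, although its interferon response genes were low. The other 8 measured interferon genes were not called at 4 h, and of them Ifnk was called at 10 h.

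The runs were then compared over culture means. At 10 h, run 2 against run 1 called 18 genes (0.0812% of all genes) and 1 of the 35, Cxcl10. Cxcl10 was at 9.75 and 9.73 with GSI and at 9.49 and 9.95 with DMSO in run 2, against 5.26 and 6.08 with GSI and 6.99 and 7.14 with DMSO in run 1. The difference was 3.36 ± 0.47 (SE, 2 cultures in each run, limma adjusted p = 0.0439), and leaving out any of the 4 cultures ended the call. The next by p did not pass: Zbp1 (2.41, adjusted p = 0.084), Gbp3, an interferon-induced GTPase (1.79, 0.192), Stat2 (1.57, 0.239), Bst2 (tetherin, 0.95, 0.283) and Oas3 (1.36, 0.290). In all, 34 of 35 differences were positive with a median of 1.36 (0.01 over all genes). Of the 35, 18 had an unadjusted p under 0.05 in limma, against 1519 of 22180 genes.

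At 4 h, run 3 against run 2 called no gene (0% of all genes), hence none of the 35. An unadjusted p under 0.05 in limma was found for 5 of 35, against 3565 of 22180 genes. That share was thus not above the share of all genes. All 35 differences were positive, with a median of 0.48 (0.01 over all genes). The smallest p belonged to Cxcl10 (1.34 ± 0.41, adjusted p = 0.175), followed by Irf9 (0.79, 0.239), Irf1 (0.72, 0.257), Bst2 (0.50, 0.263), Mx2 (1.18, 0.283) and Trim25 (0.39, 0.340). Run 3 holds cultures 4 and 5 together with cultures 6 and 7, whose medians were close to those of run 2. In the same contrast the lists of 6 endothelial and 14 stromal markers had medians of 1.00 and 0.90, with 6 of 6 and 13 of 14 positive; their part was not tested.

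With GSI for 10 h, 148 genes were called against DMSO (0.667% of all genes), among them 1 of the 35 interferon response genes, Sting1. Sting1 was at 7.30, 7.46, 8.68 and 8.34 in GSI cultures 1 to 4, against 6.44, 6.92, 8.24 and 7.84 in DMSO cultures 1 to 4. It was higher with GSI in 4 of 4 pairs, by 0.59 ± 0.12 (SE, limma adjusted p = 0.0383), although the groups overlap because the cultures differ by more. The call rests on all arrays: it was lost without the pair block (adjusted p = 0.879), with the spread taken from the 10 h arrays alone (0.409), after quantile normalization of all arrays (0.108), without an intensity trend (0.0531), after cyclic loess (0.0857) and in 7 of 11 fits that leave out a pair, where adjusted p ran from 0.0268 to 0.143.

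The other 34 were not called. Irf2 had 7.92, 7.82, 7.74 and 7.57 with GSI, against 7.41, 7.59, 7.39 and 7.38 with DMSO, higher in 4 of 4 pairs by 0.32 ± 0.08 (adjusted p = 0.0940). Cxcl10 differed by −0.69 ± 0.21 (0.134), Gbp3 by −0.40 ± 0.15 (0.225), Ifih1 by −0.38 ± 0.16 (0.295) and Dhx58 (LGP2, a regulator of RNA sensors) by 0.43 ± 0.18 (0.283). Isg15 averaged 8.79 ± 1.31 with GSI and 9.25 ± 0.69 with DMSO (SD, n = 4 each). Of the 35 differences 16 were positive and 19 negative, with a median of −0.07 (−0.01 over all genes). By role, the 5 sensors other than Sting1, the 5 transcription factors, 4 OAS and 3 IFIT genes, 5 genes of the Isg15 and ubiquitin system, 3 GTPases, 2 PARPs, 6 other effectors and Cxcl10 all missed the threshold. Of 46 further interferon-induced genes 0 passed (8 with unadjusted p under 0.05 in limma, against 3122 of 22180 genes). Of the upstream list 1 of 23, Tbk1, a kinase that activates Irf3, was called higher. In the same contrast 2 of 8 stem cell markers, Hlf and Mecom, were called higher, and 12 of 14 stromal markers were negative (1, Cd248, called); the part of cell composition was not tested.

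This near-zero median joins opposite signs in the runs. In run 1 the median difference was −0.39, with 30 of 35 genes lower with GSI, and in run 2 it was 0.27, with 30 of 35 higher. By pair, the medians were −0.44 and −0.34 in cultures 1 and 2 and 0.26 and 0.24 in cultures 3 and 4. Cxcl10 differed by −1.72 and −1.07 in run 1 and by 0.26 and −0.22 in run 2. Sting1 was an exception, at 0.86, 0.54, 0.44 and 0.51 in the 4 pairs, and so was Irf2, at 0.50, 0.23, 0.35 and 0.20. Dhx58 was also positive in all 4 pairs, at 0.06, 0.17, 0.45 and 1.03.

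The difference between the runs was tested itself. GSI effects in run 2 minus those in run 1 gave 2 called genes (0.00902% of all genes) and none of the 35. An unadjusted p under 0.05 in limma was found for 20 of 35, against 1909 of 22180 genes. The differences were positive for 31 of 35, with a median of 0.61 (−0.01 over all genes). Hepatocyte markers had the same sign in this contrast, positive for 8 of 8 with a median of 0.54, none called and 2 with an unadjusted p under 0.05, and their part was not tested. Cxcl10 had the smallest p (1.41 ± 0.22, adjusted p = 0.122), then Eif2ak2 (PKR, the kinase that halts translation on sensing double-stranded RNA, 0.99, 0.163). Ifit1 (1.29, 0.208), Cmpk2 (1.12, 0.232), Rsad2 (1.47, 0.238) and Mx1, of the GTPase group (1.27, 0.252), followed. Without culture 2, run 1 is left with 1 pair, assumed to vary like the others, and 5 of 35 were called. Without any of the other 3 cultures the number was 0 or 1.

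**Figure D4:**
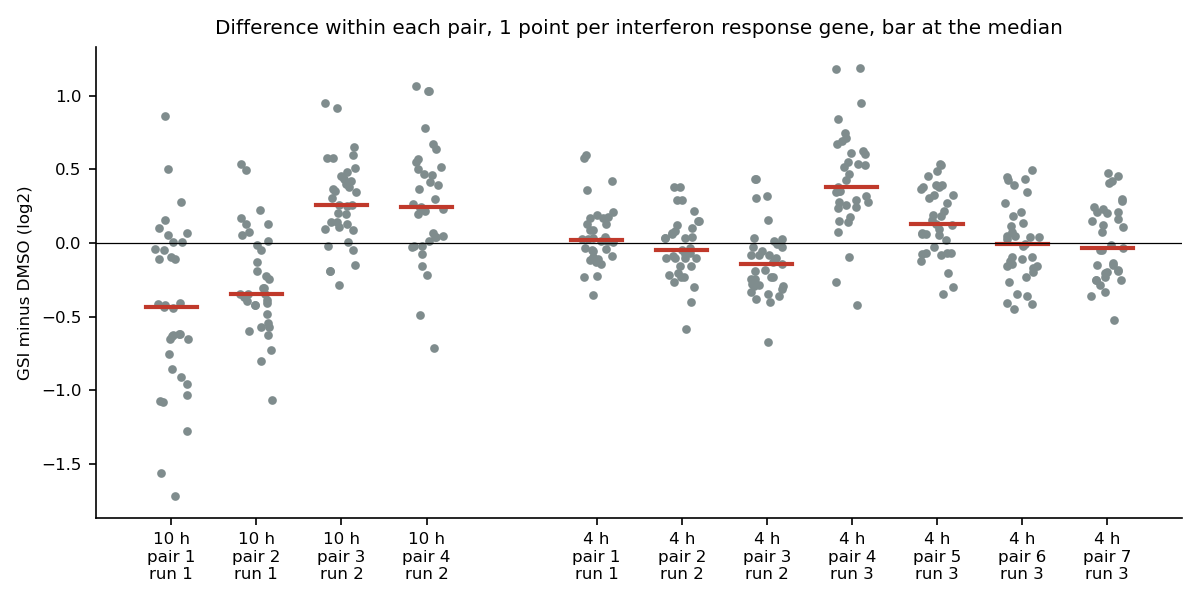
Each point is the log2 difference, GSI minus DMSO, of 1 interferon response gene in 1 pair, and the red bar is the median of the 35. The medians are −0.44 and −0.34 in 10 h run 1, 0.26 and 0.24 in 10 h run 2, and between −0.14 and 0.38 at 4 h.

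With GSI for 4 h, 1 gene was called against DMSO, Hes1 (0.00451% of all genes), and none of the 35. Only 1 of 35, Oas2, had an unadjusted p under 0.05 in limma, against 934 of 22180 genes. Differences were small: 25 of 35 were positive, with a median of 0.05 (0.01 over all genes). Oas2 differed by 0.32 ± 0.12 (adjusted p = 0.999), positive in 6 of 7 pairs. Culture 4 alone gave 1.19, and the other 6 pairs gave −0.03 to 0.37. Stat2, the subunit of the complex that carries its activation domain, differed by 0.20 ± 0.10 and was positive in 7 of 7 pairs, and Mx1 (0.28), Sting1 (−0.14), Oasl1 (0.22) and Ifi35 (0.14) also had an adjusted p of 0.999. The second Ifi35 probe set differed by 0.20. By run, the median was 0.02 in the single pair of run 1, −0.10 in run 2 and 0.17 in run 3. GSI effects in run 3 minus run 2 called no gene (0% of all genes). An unadjusted p under 0.05 in limma was found for 5 of 35, against 930 of 22180 genes. The smallest p values were those of Oasl2 (0.57 ± 0.16), Ddx60 (0.82), Ifit2 (0.67), Mx1 (0.60), Parp9 (0.44) and Eif2ak2 (0.35), all with an adjusted p of 0.999. Culture 4, the pair with the widest shift, had 32 of 35 genes higher with GSI and a median of 0.38.

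Averaged over both times, GSI against DMSO called 71 genes (0.320% of all genes) and none of the 35. An unadjusted p under 0.05 in limma was found for 5 of 35, a share close to that of all genes (2654 of 22180). The closest were Irf2 (0.20 ± 0.05, adjusted p = 0.109, positive in 9 of 11 pairs), Sting1 (0.22, 0.235), Cxcl10 (−0.36, 0.272), Xaf1, a factor that promotes apoptosis (0.18, 0.348), Isg15 (−0.29, 0.377) and Dhx58 (0.22, 0.445). The GSI effect at 10 h minus that at 4 h called 4 genes (0.0180% of all genes) and none of the 35. Again 5 of 35 had an unadjusted p under 0.05 in limma, against 2075 of 22180 genes. Sting1 had the smallest p, with effects of 0.59 at 10 h and −0.14 at 4 h and a difference of 0.72 ± 0.15 (adjusted p = 0.223). The differences of Cxcl10 (−0.65, 0.467), Ifih1 (−0.49, 0.485), Gbp3 (−0.44, 0.490), Irf2 (0.23, 0.519) and Ifi35 (−0.31, 0.556) were not called either.

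Longer and shorter culture were compared after quantile normalization of all 22 arrays, on which scale the following levels are given. Every run holds 1 time only, so time, run and the deposited normalization cannot be told apart. In GSI cells, 20.9% of all genes were called higher and 16.1% lower at 10 h, and of the 35 interferon response genes 1 was higher and 1 lower. Oas3, which makes 2′-5′ oligoadenylates on long double-stranded RNA, was at 6.91, 6.49, 8.44 and 7.96 at 10 h, against 5.19 to 7.82 with a median of 5.46 at 4 h, a difference of 1.48 ± 0.50 (SE, limma adjusted p = 0.0338). The groups overlap through 4 h culture 1, at 7.82. Irf2 was at 8.25, 8.14, 7.99 and 7.91 at 10 h, against 9.18 to 9.41 at 4 h, with no overlap, a difference of −1.22 ± 0.09 (adjusted p = 6.67e-06). Bst2 (0.80, 0.0587), Oasl2 (1.75, 0.0774), Eif2ak2 (0.96, 0.107) and Xaf1 (1.08, 0.111) followed without passing.

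In DMSO cells 18.8% of all genes were called higher and 15.3% lower at 10 h, and of the 35 genes 7 were higher and 2 lower. The 7 were Oasl2 (2.11 ± 0.71, adjusted p = 0.0373), Zbp1 (1.94 ± 0.52, 0.0127), Isg15 (1.74 ± 0.56, 0.0291), Oas3 (1.30 ± 0.41, 0.0274), Eif2ak2 (1.23 ± 0.38, 0.0264), Ifi35 (1.05 ± 0.32, 0.0235) and Bst2 (0.85 ± 0.23, 0.0151). Isg15 was at 9.24, 8.76, 10.11 and 10.06 at 10 h, against 6.77 to 9.72 with a median of 7.12 at 4 h, and again 4 h culture 1 reached into the 10 h range. Irf2 averaged 7.84 ± 0.10 at 10 h (SD, n = 4) and 9.22 ± 0.08 at 4 h (SD, n = 7), a difference of −1.37 ± 0.10 (adjusted p = 6.69e-06). Sting1 averaged 7.77 ± 0.76 at 10 h and 8.67 ± 0.38 at 4 h, a difference of −0.90 ± 0.30 (0.0330). In GSI the share of the 35 genes called was below that of all genes in both directions; in DMSO the share called higher was close to that of all genes and the share called lower was below it. Their median differences were 0.62 in GSI and 0.77 in DMSO, against 0.04 over all genes in each, and 25 and 29 of 35 were positive. Cxcl10 differed by −1.28 in GSI and −0.60 in DMSO without passing.

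Calls over time depended on the scaling and on culture 1. On the deposited scale the median of all genes shifted by −0.42 in GSI and −0.41 in DMSO. There 0 of 35 were called higher and 5 lower in GSI, and 1 higher and 4 lower in DMSO. Of 22180 genes, 470 were called higher and 14425 lower in GSI, and 464 and 12884 in DMSO. With array medians subtracted, 6 of 35 were called higher and 1 lower in GSI, and 12 higher and 1 lower in DMSO. Each was a smaller share than that of all genes, of which 9904 were higher and 2397 lower in GSI, and 9314 and 2381 in DMSO. Of all calls, 56.4% in GSI and 55.1% in DMSO were higher after quantile normalization, 3.16% and 3.48% as deposited, 80.5% and 79.6% with medians subtracted, and 47.3% and 48.1% after cyclic loess. Relative to the all-gene median, the median of the 35 genes was 0.51 to 0.58 higher in GSI and 0.52 to 0.73 higher in DMSO under the 4 scalings. Irf2 was called lower under all 4. Without 4 h culture 1, 10 of 35 were called in GSI and 20 in DMSO, against 8330 and 7657 of 22180 genes. Both arrays of that culture exceeded all 10 h arrays for 19 of 35 genes (13.8% of all genes). Without 10 h culture 3 or 4 the number in DMSO was 3 in either case.

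**Figure D5:**
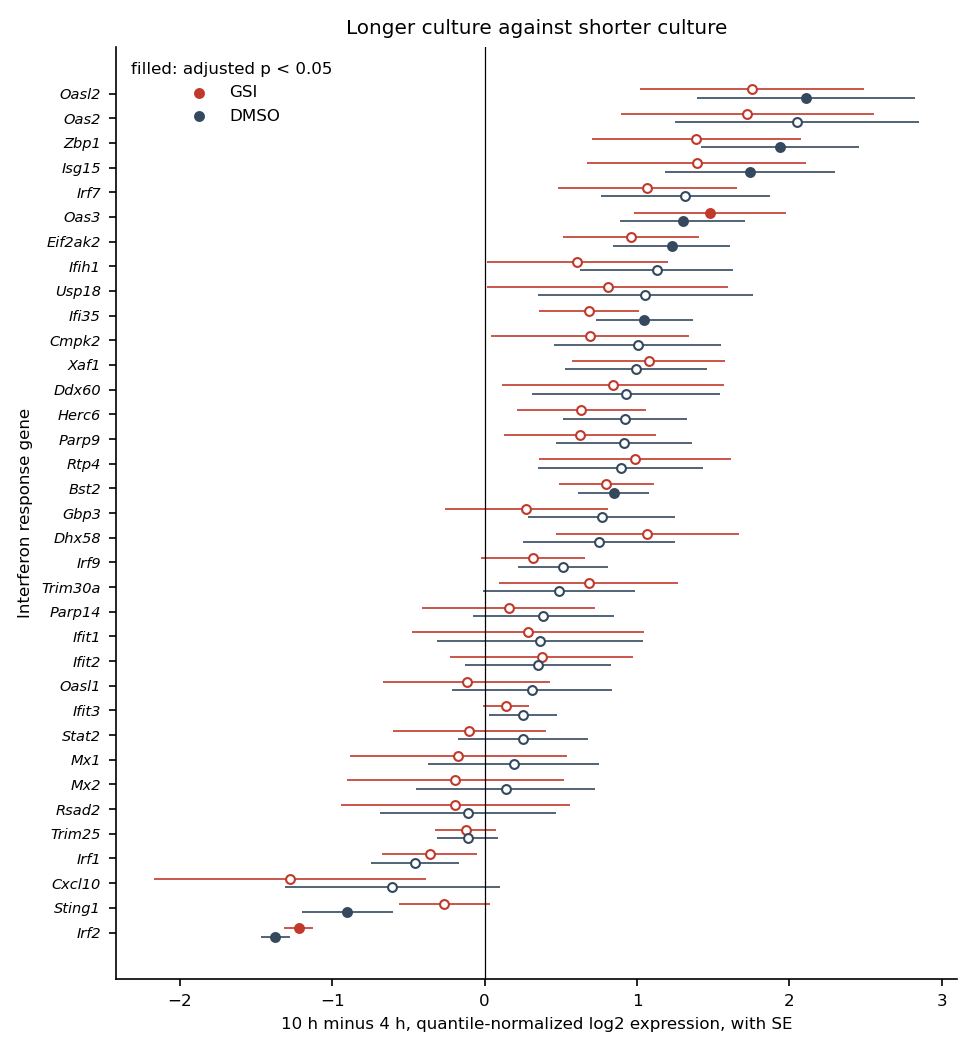
Difference between 10 h and 4 h on the quantile-normalized log2 scale for each interferon response gene, in GSI (red) and DMSO (dark), with SE bars; filled points have a limma adjusted p under 0.05. Irf2 stands apart at −1.22 and −1.37 with small errors, and Oas2, near the top, has SEs of 0.83 and 0.80.

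Markers of other cells moved with time as well. For comparison, 20.9% of all genes were called higher and 16.1% lower in GSI, and 18.8% and 15.3% in DMSO. Of 6 endothelial markers 6 were called lower in GSI and 5 in DMSO, with medians of −2.28 and −1.97. Of 8 hepatocyte markers 4 and 6 were lower, of 14 stromal markers 10 and 5 were lower (1 higher in DMSO), and of 11 macrophage markers 6 and 3. Their part in the values of the interferon response genes was not tested. Among upstream genes 10 of 23 were called lower and 1 higher in GSI, and 7 lower and 1 higher in DMSO. Ifnar1 was lower in both, by −0.85 ± 0.12 in GSI (adjusted p = 0.000249) and −1.23 ± 0.16 in DMSO (0.000246). Of 46 further interferon-induced genes, 7 were called higher and 1 lower in GSI, and 10 higher and 1 lower in DMSO. The share called higher was below that of all genes in GSI and close to it in DMSO. Ifnb1 differed by −0.24 in GSI and 0.75 in DMSO without passing.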

How the data were processed

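Expression was measured on 22 arrays, 1 per sorted sample. The deposited values are log2 expression per probe set; Partek 6.6 and RMA are named in the submitters' processing notes, and the genome build is not given in the sources used here. The arrays of each time have their own level, so the authors may have normalized the times apart, which is not stated. Arrays have no read depth; precision is set by how many there are.

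Probe sets were named from the platform annotation: of 41345, 23521 had 1 symbol, 1814 several and 16010 none listed. For each of 22180 genes the 1-symbol probe set with the highest mean was used (1082 genes had more than 1). GSI and DMSO were compared in 1 limma fit (version 3.58.1, R 4.3.3) of all arrays with the pair as a block, an intensity trend and Benjamini-Hochberg adjustment over all genes, two-sided, with a threshold of 0.05. The design text calls the pairs biological replicates, and same-numbered arrays deviated together (r = 0.213 to 0.449 at 10 h and 0.223 to 0.872 at 4 h). For these reasons the block was kept. The best match was the own partner in 3 of 4 cases at 10 h and in 7 of 7 at 4 h. Times were compared after quantile normalization. Runs were compared over culture means, or over pair differences with the mean level as trend. The F test of cultures was added after the data were seen. No 2 arrays were copies (highest r = 0.988). The fits were tested on simulated data. The members and lists were chosen with earlier results of these data known. The text names members with an adjusted p under 0.05, at most 10 in each direction, and otherwise those with the smallest p up to 6. Promoters were scanned in Python 3.11.15.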

Additional observations from a re-analysis of the deposited data

Results flagged for a closer look

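In 214 groups of 4 or 7 values, 4 had an end value whose gap to its neighbour passed Dixon's 95% limit, and chance flags about 1 in 20. Sting1 in DMSO culture 6 at 4 h was 9.72, with the next value at 9.0; the GSI array of that culture was also the highest of its group. Ifi35, an interferon-induced adaptor, was 9.86 in DMSO culture 1 at 4 h, with the next value at 8.74. The Ifi35 difference, GSI minus DMSO, was 0.42 in 10 h culture 4, with the next at −0.29. The Oas2 difference was 1.19 in 4 h culture 4, with the next at 0.37.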

How the results depend on the processing

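Each array group holds 4 or 7 samples, runs hold as few as 1 pair, and time cannot be told apart from run, so calls near the threshold moved easily. Among values of named members, 872 kept direction and side of the threshold, 62 lost the call, 21 gained it and 5 turned; of the counts and medians, 390 stayed close and 115 moved. Without the replicate block, the GSI calls were 0 genes at 10 h (0 members), 0 at 4 h, 2 for the mean of both times and 0 for the difference between times. With the spread set by time they were 2 at 10 h (0 members) and 2 at 4 h. After quantile normalization they were 36 at 10 h (0 members), 36 for the mean and 0 for the difference. After cyclic loess they were 67 at 10 h (0 members), and the GSI effect of run 2 minus run 1 gave 1. With genes above the median level only, they were 285 at 10 h (2 members, Sting1 and Irf2) and 162 for the mean, and the time calls were 4645 in GSI and 4114 in DMSO, with fewer genes tested. Without a trend they were 91 at 10 h (0 members), 1 for levels of run 3 minus run 2, 7 for levels of run 2 minus run 1 (0 members) and 1 for the GSI effect of run 2 minus run 1.

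Within single runs, the GSI calls were 0 (0 members) in run 1 and 15 (0 members) in run 2 at 10 h, and 148 in run 2 at 4 h. No value was possible for run 1 at 4 h, which holds 1 pair, and setting the spread by time gives none for the mean or the difference of both times. Signs turned in run 2 for Mx1 (−0.10), Sting1 (0.017) and Ifi35 (−0.066) at 4 h and for Cxcl10 (0.019) and Ifih1 (0.027) at 10 h; the cause was not tested. Over time, the deposited scale called 14895 genes (5 members) in GSI and 13348 (5) in DMSO, subtracted medians called 7 members in GSI and 11695 genes in DMSO, and a random replicate block called 4 members in GSI. Against 4 h run 2 alone the calls were 3721 genes (14 members) in GSI and 1602 (16) in DMSO. Levels of run 2 minus run 1 called 0 members on DMSO arrays alone and 31 genes on GSI arrays alone.

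Leaving out 1 culture gave 27 to 228 genes and 0 to 2 members for GSI at 10 h (27 without 10 h culture 4), 1 to 3 genes at 4 h, 20 to 136 for the mean and 0 to 7 for the difference. Over time it gave 1 to 10 members in GSI and 3 to 20 in DMSO. It gave 0 to 291 genes for levels of run 3 minus run 2 (291 without culture 6), 1 to 44 genes and 0 members for levels of run 2 minus run 1, and 1 to 120 genes and 0 to 5 members for the GSI effect of run 2 minus run 1, most without 10 h culture 2. The F test called 2583 to 5724 genes (32 to 33 members) at 4 h, 152 to 3746 (25 to 33) within run 3, lowest without culture 6 in both, and 1131 to 3047 (29 to 33) at 10 h.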
